A study of Mus musculus with 14 samples.

Results

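Transcripts of 10 hepatic nuclear receptors were measured in mouse liver during concanavalin A (ConA) hepatitis, with and without the m6A reader YTHDF1. The genes were Nr1i3 (CAR), Nr1i2 (PXR), Nr1h4 (FXR), Nr0b2 (SHP), Nr1h3 (LXR alpha), Ppara (PPAR alpha), Rxra (RXR alpha), Nr5a2 (LRH-1), Thrb (thyroid hormone receptor beta) and Esrra (ERR alpha). They were taken by gene symbol from the 17656 genes of each table, and each of the 10 was found in every one of the 14 libraries. Each passed the filter on low values in each comparison.

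The 14 libraries are whole-liver RNA of 14 mice on a C57BL/6 background, and the methods give 6 to 10 weeks as the age of the study's mice. WT saline livers (n = 3) came from wild-type mice and KO saline livers (n = 3) from Ythdf1-/- mice, both taken 8 h after saline. WT ConA livers (n = 4) and KO ConA livers (n = 4) were taken 8 h after an intravenous injection of ConA, at 8 mg/kg in the study's account of this experiment. ConA is a plant lectin that activates T cells and causes acute liver injury. The knockout is in the germ line, so that every cell type of the animal carries it, not hepatocytes alone.

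Values are TPM (transcript levels scaled for gene length to a fixed total per library), so levels can be compared between genes within a library. Differences are on the log2(TPM + 1) scale and are tested with limma across all genes. They are given with 95% intervals. A gene is said to be called, higher or lower, where its p adjusted by the Benjamini-Hochberg method is under 0.05. This scale understates the change of genes with a low TPM. The depth of the libraries is unknown, and the spread between mice is the only error available.

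Nuclear receptors are transcription factors that bind DNA and, in most cases, a small lipophilic ligand. CAR and PXR sense drugs and other foreign compounds, FXR senses bile acids, LXR alpha senses oxysterols, PPAR alpha senses fatty acids, and all of these bind DNA as heterodimers with RXR alpha. SHP has no DNA-binding domain and represses other receptors, among them LRH-1 in bile acid synthesis. ERR alpha is an orphan receptor that drives mitochondrial genes together with the coactivators PGC-1 alpha and PGC-1 beta.

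The promoters of 4 members are shown because 3 of them, Nr1i3, Nr1h4 and Nr0b2, had the largest differences between ConA and saline livers, whereas Nr5a2 was not called in either genotype. All 10 members matched the RefSeq promoter table of GRCm38.p6, the build named in the submitters' processing notes, with 14 promoters in all. The 250 bases before each start were searched on both strands. Capitals mark the nuclear receptor half-site AGGTCA, read as TGACCT on the other strand, and the TATA box TATAAA, read as TTTATA. For Nr1i3 the 36 bases nearest the start were left out because the RefSeq gene begins there. The Nr1h4 window lies inside the Nr1h4 gene, upstream of one of its later starts, and none of the windows overlaps an annotated exon.
Nr1i3, chr1:171213720-171213933, plus strand: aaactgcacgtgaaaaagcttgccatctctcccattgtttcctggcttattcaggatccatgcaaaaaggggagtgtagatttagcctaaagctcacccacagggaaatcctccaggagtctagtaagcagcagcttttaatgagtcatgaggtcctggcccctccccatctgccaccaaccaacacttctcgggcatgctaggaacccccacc
Nr1h4, chr10:89506659-89506908, minus strand: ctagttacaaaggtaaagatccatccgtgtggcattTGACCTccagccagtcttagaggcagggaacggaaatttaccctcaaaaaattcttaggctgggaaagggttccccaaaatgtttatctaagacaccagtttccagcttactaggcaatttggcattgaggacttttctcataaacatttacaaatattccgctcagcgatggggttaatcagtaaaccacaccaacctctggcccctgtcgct
Nr0b2, chr4:133553126-133553375, plus strand: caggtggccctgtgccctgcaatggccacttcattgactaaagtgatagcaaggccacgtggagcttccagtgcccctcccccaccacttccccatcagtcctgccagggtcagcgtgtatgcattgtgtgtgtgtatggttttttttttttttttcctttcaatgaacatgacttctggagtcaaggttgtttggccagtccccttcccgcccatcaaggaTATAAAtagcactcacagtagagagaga
Nr5a2, chr1:136960449-136960698, minus strand: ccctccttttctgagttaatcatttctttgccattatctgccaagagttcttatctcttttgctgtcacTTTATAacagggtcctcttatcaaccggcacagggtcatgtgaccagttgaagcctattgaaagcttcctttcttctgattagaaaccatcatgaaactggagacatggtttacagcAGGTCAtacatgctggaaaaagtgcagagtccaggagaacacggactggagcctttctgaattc

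The half-site was found at -214 of Nr1h4 and at -64 of Nr5a2, counted from the transcript start to the first base of the match. Among the members not shown it was found at -87 and -48 of the second Rxra promoter and at -184 of the first Thrb promoter. Thus 4 of the 14 member promoters held it, each in a different member, and 14% of 32817 RefSeq promoters of this length held it. This background, called all promoters below, leaves out those of chr18. The TATA box stood at -28 of Nr0b2, at -181 of Nr5a2 and at -167 of the second Thrb promoter, and 12.4% of all promoters held one. The extended half-site CAAGGTCA, which contains AGGTCA, was found in 0 of the 14 member promoters and in 1.3% of all. The GC box GGGCGG was found in 5 of the 14 member promoters and in 32.7% of all. The STAT motif TTCNNNGAA was found in Nr0b2 alone among the members and in 7.0% of all promoters. These matches are letters in a window and were not tested for binding.

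Several facts of the libraries touch the values that follow. The summed TPM of 8 hepatocyte markers ran from 66480 to 139679 over the 14 livers, with none at 0, so the liver label held. WT saline mice 2 and 3 were closer to each other than any other replicate pair, with a median absolute log2 ratio of 0.0778 over expressed genes against 0.126 to 0.407 for the other pairs. Where averaging this pair into 1 sample ended the call of a gene named below, or lowered the count of a list, the averaged value is given. ConA mouse 3 of each genotype stood apart, with median ratios to the geometric mean of 0.791 in WT and 0.847 in KO against 0.966 to 1.19 in the other libraries. Ythdf1 itself lay between 12.0 and 13.9 TPM in the WT saline livers and between 18.4 and 20.8 TPM in the KO saline livers, with 18.7 to 25.6 TPM after ConA in WT and 15.5 to 26.2 TPM after ConA in KO. Every KO saline liver was thus above every WT saline liver, and the ConA ranges overlapped. These gene totals show no loss of Ythdf1 mRNA in KO, and which exons the reads cover is not known here. They do not check the genotype labels, so WT and KO here mean what the labels say. The cause of the higher KO saline values was not tested.

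The summed mRNA of the 10 members was far lower in ConA livers than in saline livers of both genotypes. In WT mice 7 of the 10 members were called lower after ConA and 0 higher, where 31% of all 10768 genes tested were called lower and 22% higher. In KO mice 7 of 10 were again called lower and 0 higher, against 30.7% and 33.9% of 10988 genes. The median log2 difference of the members was -1.20 in WT and -0.98 in KO, beside -0.07 and 0.07 over all genes tested. Summed over the 10 members, WT livers held between 742 and 777 TPM in saline and between 242 and 313 TPM after ConA. KO livers held between 538 and 618 TPM in saline and between 173 and 277 TPM after ConA. In bulk liver, fewer cells of a type and less RNA per cell cannot be told apart.

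**Figure D1:**
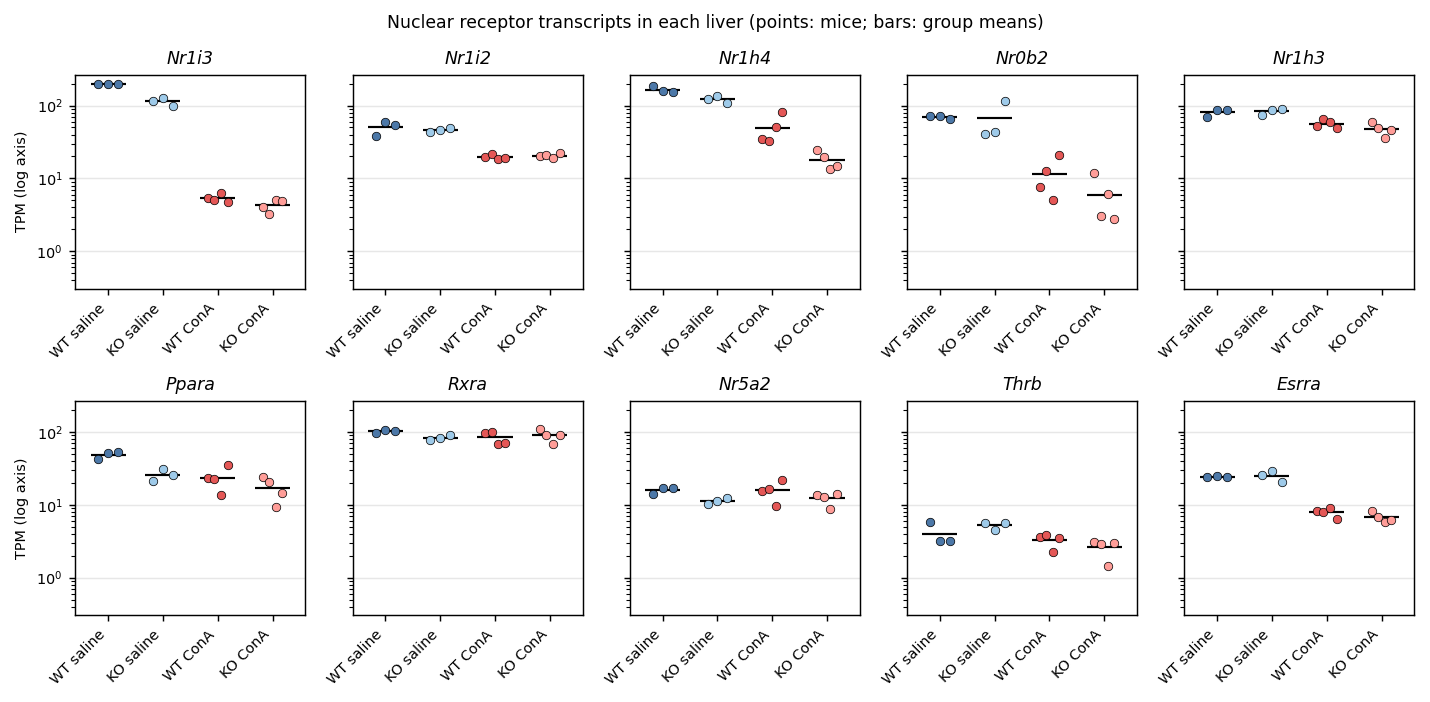
TPM of the 10 nuclear receptor transcripts in each liver, on a log axis. Each point is a mouse (3 WT saline, 3 KO saline, 4 WT ConA, 4 KO ConA) and each bar is the group mean. Nr1i3 lies at 100.1 TPM or above in the saline livers and at 6.28 TPM or below in the ConA livers, whereas the Rxra and Nr5a2 groups overlap between ConA and saline.

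The 2 xenobiotic sensors both fell. Nr1i3, which encodes CAR, the receptor behind phenobarbital induction of Cyp2b genes, had 196, 196 and 195 TPM in the WT saline mice and 116, 126 and 100.1 TPM in the KO saline mice. It had 5.37, 5.02, 6.28 and 4.81 TPM in WT ConA and 4.10, 3.25, 5.02 and 4.84 TPM in KO ConA. The highest ConA liver was thus far under the lowest saline liver. The WT ConA mean was 2.75% of the WT saline mean and the KO ConA mean 3.77% of the KO saline mean. On the log2 scale the difference was -4.95 in WT (95% interval -5.24 to -4.67, adjusted p = 3.38e-08) and -4.45 in KO (-4.79 to -4.10, adjusted p = 5.90e-09).

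Nr1i2, which encodes PXR, the main inducer of Cyp3a11, had 38.8, 60.0 and 54.7 TPM in WT saline and 43.4, 46.0 and 49.9 TPM in KO saline. After ConA it had 19.7, 21.6, 18.5 and 18.9 TPM in WT and 20.1, 20.9, 18.9 and 22.02 TPM in KO. The ConA livers of both genotypes formed a narrow band below every saline liver. Its log2 difference was -1.32 in WT (-1.69 to -0.95, adjusted p = 1.57e-04) and -1.14 in KO (-1.40 to -0.88, adjusted p = 1.07e-05).

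Among the bile acid receptors, the sensor FXR and its target SHP fell, and LRH-1 was not called. Nr1h4, which encodes FXR, had 184, 158 and 153 TPM in WT saline and 123, 135 and 108 TPM in KO saline. It had 34.7, 32.9, 50.03 and 81.2 TPM in WT ConA and 24.6, 19.4, 13.5 and 15.0 TPM in KO ConA. WT ConA mouse 4 was the highest of the ConA livers, and every KO ConA liver was below every WT ConA liver. The log2 difference between ConA and saline was -1.80 in WT (-2.44 to -1.17, adjusted p = 5.95e-04) and -2.71 in KO (-3.13 to -2.30, adjusted p = 5.83e-07).

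Nr0b2, which encodes SHP, had 71.7, 71.2 and 64.5 TPM in WT saline and 41.1, 43.8 and 116 TPM in KO saline. It had 7.58, 12.5, 5.06 and 20.9 TPM in WT ConA and 11.7, 3.06, 6.04 and 2.77 TPM in KO ConA. KO saline mouse 3 was the highest of all livers, and the mice of the ConA groups spread widely without reaching any saline liver. The log2 difference was -2.65 in WT (-3.49 to -1.82, adjusted p = 3.00e-04) and -3.31 in KO (-4.30 to -2.33, adjusted p = 7.18e-05).

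Nr5a2, which encodes LRH-1, an activator of bile acid synthesis genes, had 13.9, 17.0 and 17.1 TPM in WT saline and 10.2, 11.4 and 12.4 TPM in KO saline. It had 15.4, 16.5, 9.63 and 21.7 TPM in WT ConA and 13.7, 12.8, 8.68 and 14.1 TPM in KO ConA. ConA and saline livers overlapped in both genotypes, and ConA mouse 3 was the lowest of its group in each. The intervals of the log2 difference were -0.59 to 0.47 in WT and -0.30 to 0.49 in KO.

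The lipid sensors had smaller differences than Nr1i3, Nr1h4 and Nr0b2. Nr1h3, which encodes LXR alpha, had 69.1, 88.0 and 85.9 TPM in WT saline, 75.4, 86.2 and 89.0 TPM in KO saline, 52.2, 65.2, 59.7 and 49.9 TPM in WT ConA, and 59.1, 49.7, 35.4 and 45.5 TPM in KO ConA. All ConA livers were below all saline livers. Its log2 difference was -0.51 in WT (-0.84 to -0.18, adjusted p = 0.0156) and -0.82 in KO (-1.18 to -0.46, adjusted p = 0.0011). With WT saline mice 2 and 3 averaged the WT difference was -0.45 (adjusted p = 0.0774), which leaves 6 members called in WT. It was also not called without WT saline mouse 2 (adjusted p = 0.0815), without mouse 3 (0.0750), or with rescaled libraries (0.0848).

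Ppara, which encodes PPAR alpha, the inducer of fatty acid oxidation and ketone synthesis, had 42.3, 51.6 and 52.6 TPM in WT saline and 20.9, 31.2 and 25.6 TPM in KO saline. It had 23.0, 22.9, 13.8 and 35.0 TPM in WT ConA and 24.2, 20.5, 9.43 and 14.7 TPM in KO ConA. In WT the ConA livers lay below the saline livers, and in KO the groups overlapped. The log2 difference was -1.08 in WT (-1.67 to -0.49, adjusted p = 0.0068). In KO it was -0.62 (-1.22 to -0.03, adjusted p = 0.0630), and it was called without KO ConA mouse 1 (adjusted p = 0.0172), without mouse 2 (0.0452) or with rescaled libraries (0.0175). Without KO ConA mouse 3 it was -0.38 and was not called.

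Rxra, the shared partner of these receptors, had 96.4, 107 and 103 TPM in WT saline and 77.3, 82.6 and 90.5 TPM in KO saline. It had 97.0, 99.3, 68.1 and 71.1 TPM in WT ConA and 108, 89.4, 68.4 and 91.0 TPM in KO ConA. ConA and saline livers overlapped in both genotypes. The log2 difference was -0.30 in WT (-0.67 to 0.07, adjusted p = 0.150) and 0.08 in KO (-0.25 to 0.41, adjusted p = 0.659).

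Thrb, the main thyroid hormone receptor of hepatocytes, was the lowest member in every group. It had 5.71, 3.17 and 3.21 TPM in WT saline, 5.53, 4.50 and 5.68 TPM in KO saline, 3.62, 3.83, 2.23 and 3.45 TPM in WT ConA, and 3.11, 2.93, 1.45 and 2.99 TPM in KO ConA. WT ConA and WT saline overlapped, and every KO ConA liver was below every KO saline liver. The log2 difference was -0.21 in WT (-0.70 to 0.28, adjusted p = 0.443) and -0.81 in KO (-1.27 to -0.35, adjusted p = 0.0052).

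Esrra, which encodes ERR alpha, had 24.2, 24.7 and 23.9 TPM in WT saline and 25.3, 28.6 and 20.6 TPM in KO saline. It had 8.30, 7.91, 8.95 and 6.37 TPM in WT ConA and 8.23, 6.89, 5.73 and 6.17 TPM in KO ConA. The saline groups overlapped each other, and all ConA livers were well below them. The log2 difference was -1.51 in WT (-1.83 to -1.19, adjusted p = 2.81e-05) and -1.73 in KO (-2.10 to -1.37, adjusted p = 5.88e-06).

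Markers of liver cell types moved with ConA too. The summed TPM of the 8 hepatocyte markers lay between 118352 and 139679 in WT saline livers and between 69930 and 93381 after ConA in WT. In KO mice it lay between 112597 and 130600 in saline and between 66480 and 80100 after ConA. Of these 8 markers 6 were called lower in each genotype, beside 31% of all genes in WT and 30.7% in KO. In WT 2 were not called, and in KO 2 were called higher. The sum of 8 neutrophil markers lay between 9.54 and 11.2 TPM in WT saline livers and between 316 and 554 TPM after ConA. In KO mice it lay between 5.27 and 10.7 TPM in saline, where Mpo and Elane were at 0, and between 410 and 944 TPM after ConA. In each genotype 5 of 6 tested neutrophil markers were called higher and 0 lower. Over all genes 22% were called higher in WT and 33.9% in KO. For 8 Kupffer cell markers the saline sums were 108 to 182 TPM (WT) and 49.9 to 114 TPM (KO), and the ConA sums 19.2 to 72.5 TPM (WT) and 15.0 to 65.8 TPM (KO). The KO ranges thus overlapped. Of these 8 markers 7 were called lower in WT and 3 in KO, beside 31% and 30.7% of all genes. None was called higher, and 5 were not called in KO. The 5 T cell markers in the tables reached 4.29 TPM at most. The part of these shifts in the receptor values was not tested.

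**Figure D2:**
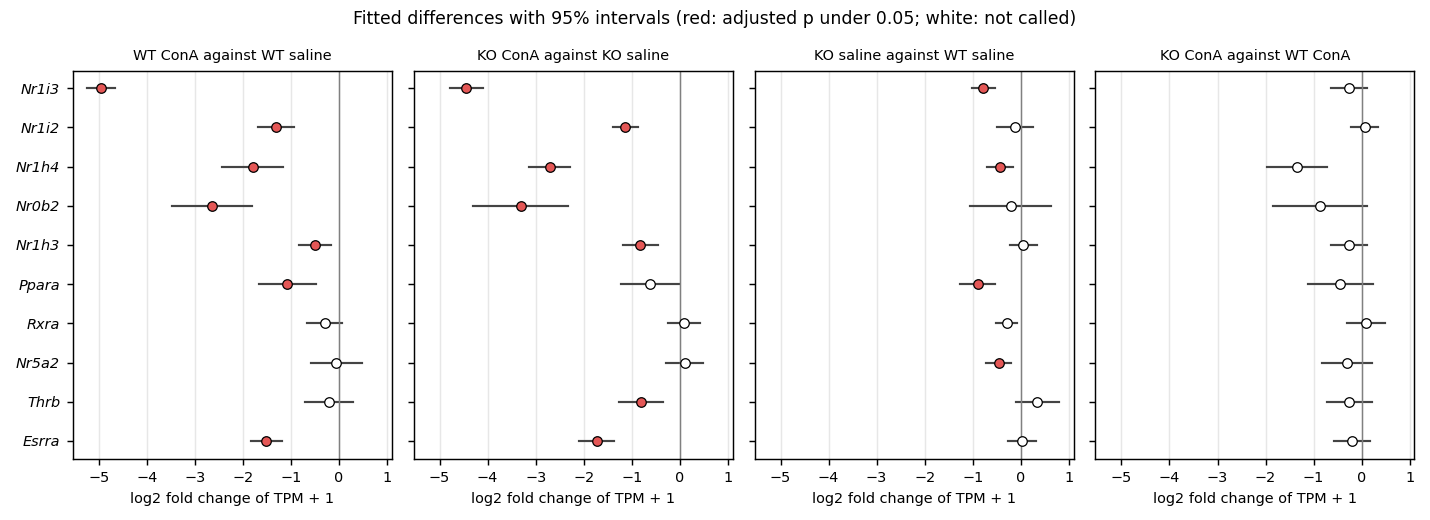
Log2 differences of the 10 members in 4 comparisons, with 95% intervals from limma on log2(TPM + 1). Red points have an adjusted p under 0.05 and white points do not. 7 members are red in each ConA response, 4 in the saline comparison of genotypes and 0 in the ConA comparison of genotypes.

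The genotypes also differed in saline. Of the 10 members 4 were called lower in the KO livers and 0 higher, against 12.9% and 6.3% of the 10459 genes tested. Nr1i3 differed by -0.78 (-1.02 to -0.54, adjusted p = 0.0105) and its KO mean was 58.3% of the WT mean. Ppara differed by -0.90 (-1.26 to -0.54, adjusted p = 0.0181) and its KO mean was 53.1% of the WT mean. Nr5a2 differed by -0.46 (-0.72 to -0.20, adjusted p = 0.0337) and Nr1h4 by -0.43 (-0.70 to -0.16, adjusted p = 0.0416).

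In 5 of the 10 members every KO saline liver was below every WT saline liver, as it was in 29.2% of all genes tested. The fifth was Rxra, at -0.29 (-0.51 to -0.07, adjusted p = 0.0636). Nr1i2 (-0.49 to 0.26), Nr0b2 (-1.05 to 0.63), Nr1h3 (-0.23 to 0.33), Thrb (-0.11 to 0.79) and Esrra (-0.26 to 0.30) were not called, and their groups overlapped.

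These saline calls held unevenly under the 13 alternatives. Nr1i3 was called in 10 of them, Ppara in 9, Nr5a2 in 5 and Nr1h4 in 3. With WT saline mice 2 and 3 averaged 0 of the 10 members were called. The differences were then -0.78 for Nr1i3 (adjusted p = 0.0711), -0.85 for Ppara (0.0877), -0.47 for Nr1h4 (0.121) and -0.42 for Nr5a2 (0.131). None was called without WT saline mouse 2 or without mouse 3. Nr1h4 was not called without WT saline mouse 1 either (0.0738), nor without any 1 of the KO saline mice (0.0567 to 0.0952). Nr5a2 was not called without KO saline mouse 1 (0.0905) or mouse 2 (0.0769). Without KO saline mouse 3, Nr0b2 (-0.69, adjusted p = 0.0100) and Rxra (-0.35, adjusted p = 0.0321) were called lower, and without WT saline mouse 1 Thrb was called higher (0.57, adjusted p = 0.0248). The summed TPM of 5 cholangiocyte markers lay between 46.5 and 57.0 in the WT saline livers and between 83.7 and 89.4 in the KO saline livers. For 6 endothelial markers these ranges were 14.2 to 23.5 and 25.1 to 42.4, and for 6 stellate cell markers 15.8 to 64.6 and 57.3 to 101. Their part in the receptor values was not tested, and the hepatocyte sums of the saline groups overlapped.

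Between the genotypes after ConA, none of the 10 members passed the limma test, and over all 10519 genes 0.0856% were called lower in KO and 0.342% higher. Nr1h4 was the 1 member with an unadjusted p under 0.05, as 1753 of all 10519 genes had. Its KO ConA mean was 36.5% of the WT ConA mean, with a log2 difference of -1.35 (-1.97 to -0.73, adjusted p = 0.0664). It was the 1 member whose KO ConA livers all lay below the WT ConA livers, as was so for 4.11% of all genes, whereas 6.37% lay wholly above. Fitted on all 14 livers together, the Nr1h4 difference was called (adjusted p = 0.0089), and over the alternatives, of which 1 was chosen after seeing the data, its adjusted p ran from 0.0089 to 0.154.

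The intervals of the other members in KO ConA against WT ConA spanned 0. The widest was that of Nr0b2, at -0.87 (-1.85 to 0.11, adjusted p = 0.357), with KO ConA mice 1 and 3 inside the WT range. Nr1i3 was at -0.27 (-0.64 to 0.10), Ppara at -0.45 (-1.13 to 0.24), Nr5a2 at -0.30 (-0.83 to 0.22), Nr1h3 at -0.27 (-0.64 to 0.10), Thrb at -0.26 (-0.72 to 0.21) and Esrra at -0.20 (-0.57 to 0.17). Nr1i2 was at 0.06 (-0.22 to 0.34) and Rxra at 0.09 (-0.30 to 0.48). The neutrophil sum reached 554 TPM at most in WT ConA and 944 TPM in KO ConA, with overlapping ranges, and the cholangiocyte sum lay between 18.7 and 32.1 TPM in WT and between 36.8 and 56.4 TPM in KO. Whether these go with the Nr1h4 values was not tested.

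The interaction of genotype and ConA asks whether the response itself differed. None of the 10 members passed this limma test, against 2.64% of 11327 genes called higher and 2.14% called lower. An unadjusted p under 0.05 was found for 2 of the 10 members, beside 2862 of all 11327 genes. The response of Nr1i3 was smaller in KO by 0.51 on the log2 scale (0.09 to 0.92, adjusted p = 0.128). Nr1h4 had the larger fall in KO, by -0.91 (-1.70 to -0.13, adjusted p = 0.142). The Nr1i3 levels started lower in KO saline and ended in overlapping ranges, whereas those of Nr1h4 started lower and ended lower.

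**Figure D3:**
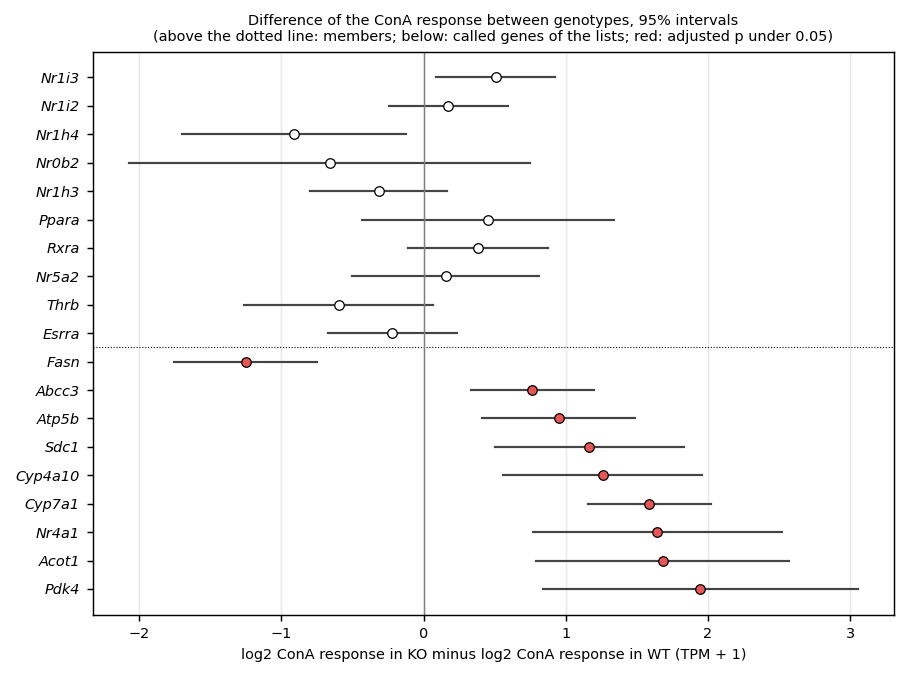
Difference of the log2 ConA response between genotypes (KO minus WT) with 95% intervals. The 10 members stand above the dotted line and none is called. Below it stand the 9 called genes of the target, receptor and coregulator lists in red, from Fasn at -1.25 to Pdk4 at 1.95.

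The order of the members by level changed with ConA. In WT saline the order of mean TPM was Nr1i3, Nr1h4, Rxra, Nr1h3, Nr0b2, Nr1i2, Ppara, Esrra, Nr5a2 and Thrb, with means of 196 TPM for Nr1i3 and 4.03 TPM for Thrb. The ranges of neighbours overlapped only for Nr1h3 with Nr0b2 and for Nr1i2 with Ppara. In KO saline Nr1h4 (mean 122 TPM) stood before Nr1i3 (114 TPM), with overlapping ranges. After ConA Rxra came first in both genotypes, at means of 83.9 TPM in WT and 89.2 TPM in KO, and Nr1i3 was ninth of 10, above Thrb alone. Nr1i3 and Thrb overlapped in neither of the ConA groups.

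The gene whose profile over the 14 libraries was most like that of a member, by the root mean square difference of log2(TPM + 1) profiles centred on WT saline, was found among 11021 genes. Members and unnamed genes with Gm or Rik symbols were not candidates. For Nr1i3 it was Cyp8b1, the sterol 12-alpha-hydroxylase of bile acid synthesis, at 0.395 log2 units, with means of 168 TPM in WT saline, 76.1 TPM in KO saline, 4.81 TPM in WT ConA and 2.49 TPM in KO ConA. For Nr1h4 it was Cyp2c54, a cytochrome P450 (0.311), with means of 733, 543, 222 and 109 TPM in the same order. For Nr1i2 it was Fmo1, a flavin monooxygenase (0.108), at 223, 210, 93.2 and 96.8 TPM. The others were Kcnk5 for Nr0b2 (0.505), Med22 for Nr1h3 (0.110), Phf14 for Ppara (0.248), Dip2c for Rxra (0.087), Ercc6l2 for Nr5a2 (0.153), Zfhx2 for Thrb (0.163) and Pnpla1 for Esrra (0.145). Dip2c, Ercc6l2, Zfhx2 and Pnpla1 had group means of 4.02 TPM or below, where this scale understates change. Their likeness on this scale is thus not likeness in fold change. The 14 livers share their 4 groups, and no test was made.

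Known targets of the members were followed next, first those of CAR and PXR. After ConA 31% of all genes tested were called lower and 22% higher in WT, and 30.7% and 33.9% in KO. These shares stand beside the count of each list below. Of 22 genes, 19 were called lower and 1 higher in WT, with a median of -1.36, and 18 lower and 1 higher in KO, with a median of -1.46. Cyp2a5, a coumarin hydroxylase, lay between 1649 and 2257 TPM in WT saline livers and between 155 and 267 TPM after ConA in WT, a log2 difference of -3.26 (adjusted p = 3.79e-06). Cyp2b13, a steroid hydroxylase, ran from 191 to 381 and from 12.9 to 26.7 TPM (-3.83, adjusted p = 9.59e-06). The bilirubin glucuronide exporter Abcc2 ran from 39.2 to 40.5 and from 7.15 to 10.5 TPM (-2.01, adjusted p = 8.52e-06). The 1 gene called higher in both genotypes was Cyp2b10, the classical CAR target, at 0.60 in WT (adjusted p = 0.0304) and 1.5 in KO (adjusted p = 0.0033), and it was singled out after its values were seen. With WT saline mice 2 and 3 averaged, Cyp2b10 was not called in WT, and 19 genes were called lower.

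The bile acid genes that SHP represses had the lowest medians of these lists. All 3 were called lower in both genotypes, with medians of -4.90 in WT and -4.37 in KO. Cyp7a1, the rate-limiting enzyme of bile acid synthesis, lay between 66.8 and 72.5 TPM in WT saline livers and between 17.7 and 26.3 TPM in KO saline livers. After ConA it lay between 0.02 and 0.34 TPM in WT and between 0.06 and 0.12 TPM in KO. The KO saline mice were below the WT saline mice, and all ConA livers were near 0. Its log2 difference was -5.95 in WT (adjusted p = 3.16e-08) and -4.37 in KO (adjusted p = 9.22e-09). Cyp8b1 differed by -4.90 in WT (adjusted p = 5.05e-07) and Slc10a1, the bile acid uptake carrier NTCP, by -3.12 (adjusted p = 1.07e-06). Nr0b2, the transcript of their repressor, was low in the same ConA livers.

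FXR targets moved in both directions. In WT 5 of 9 tested genes were called lower and 1 higher, and in KO 6 lower and 3 higher, with medians of -0.57 and -0.56. The canalicular exporters fell in WT, Abcb4 for phospholipid by -2.0 (adjusted p = 2.63e-06) and Abcb11, the bile salt export pump, by -1.70 (adjusted p = 4.41e-04), and the bile acid ligase Slc27a5 differed by -1.06 (adjusted p = 1.47e-04). The basolateral exporter subunit Slc51b was higher, at 2.02 in WT (adjusted p = 0.0099) and 1.14 in KO (adjusted p = 0.0340), and was singled out after its values were seen.

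The LXR and PPAR alpha lists were mostly lower. Of 9 LXR targets tested in WT 5 were called lower and 1 higher (median -1.20), and of 10 in KO 8 lower and 1 higher (median -1.37). With WT saline mice 2 and 3 averaged 4 of 10 LXR targets were called lower in WT. The lowest p in WT belonged to the phospholipid enzyme Lpcat3, at -2.19 (adjusted p = 4.63e-06), and to the sterol exporter subunits Abcg8, at -2.38 (adjusted p = 3.29e-05), and Abcg5, at -2.19 (adjusted p = 3.69e-05). The 1 gene called higher was the cholesterol exporter Abca1, at 2.32 in WT (adjusted p = 1.41e-04) and 3.21 in KO (adjusted p = 5.45e-07). Of 24 PPAR alpha targets 21 were called lower and 2 higher in WT (median -1.29), and of 23 in KO 12 were called lower and 2 higher (median -0.43). With the WT saline pair averaged 18 were called lower in WT.

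Acsl1, which activates long-chain fatty acids, lay between 214 and 229 TPM in WT saline livers and between 17.0 and 30.2 TPM after ConA in WT (-3.10, adjusted p = 2.84e-06). The fatty acid hydroxylase Cyp4a10 differed by -2.03 (adjusted p = 3.23e-05). The 2 genes called higher in both genotypes were the lipid droplet protein Plin2 (1.08 in WT and 2.46 in KO) and Pdk4, an inhibitor of pyruvate dehydrogenase (1.21 and 3.16).

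Of 5 thyroid hormone receptor targets 4 were called lower in each genotype, and 1, Gpd2, was called higher in KO (0.51, adjusted p = 0.0240). In WT the deiodinase Dio1 differed by -1.42 (adjusted p = 2.14e-05), malic enzyme Me1 by -1.02 (adjusted p = 0.0014) and Thrsp, a lipogenic protein, by -1.05 (adjusted p = 0.0428). With the WT saline pair averaged Thrsp was not called (-1.11, adjusted p = 0.0798) and 2 of the 5 were called lower in WT, as without any 1 of the WT saline mice or without WT ConA mouse 2. Of 6 ERR alpha targets 4 were called lower in each genotype, and in WT the citric acid cycle genes Idh3a and Sdhb differed by -1.26 (adjusted p = 1.48e-04) and -1.03 (adjusted p = 5.97e-04). In KO Atp5b, an ATP synthase subunit, was called higher (0.52, adjusted p = 0.0153).

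Other nuclear receptors were more often called lower than higher. Of 39 listed genes 36 are in the tables, and of 23 tested in WT 13 were called lower and 1 higher, with a median of -0.72. With WT saline mice 2 and 3 averaged, 11 were called lower and 0 higher. In KO 13 of 25 were called lower and 3 higher, with a median of -0.70, and without KO ConA mouse 3 the number called higher was 8. Summed over the 36 genes, KO livers held between 400.04 and 432 TPM in saline and between 351 and 449 TPM after ConA, so these ranges overlapped, whereas in WT livers the sums were 445 to 457 and 298 to 427 TPM. In WT the mineralocorticoid receptor Nr3c2 ran from 2.20 to 2.84 TPM in saline and from 0.16 to 0.57 TPM after ConA (-1.42, adjusted p = 7.45e-05). The orphan receptor Nr2f6 ran from 48.1 to 53.2 and from 20.0 to 27.6 TPM (-1.07, adjusted p = 1.91e-04), and Rxrg from 6.14 to 7.95 and from 1.08 to 2.57 TPM (-1.55, adjusted p = 1.98e-04). Ppard was called higher in both genotypes, at 0.62 in WT (adjusted p = 0.0139, not called with the WT saline pair averaged) and 0.47 in KO (adjusted p = 0.0329).

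Of 18 coregulators 5 were called lower and 1 higher in WT, and 3 lower and 3 higher in KO. Over all genes 31% were called lower and 22% higher in WT, and 30.7% and 33.9% in KO. Without WT ConA mouse 3 the number called higher in WT was 4, and without KO ConA mouse 3 the number called higher in KO was 5. With rescaled libraries 5 were called lower in KO, and with the WT saline pair averaged 4 were called lower in WT. Ppargc1b, which encodes PGC-1 beta, lay between 1.75 and 2.61 TPM in WT saline livers and between 0.06 and 0.15 TPM after ConA in WT (-1.49, adjusted p = 2.25e-05). Ppargc1a, which encodes PGC-1 alpha, differed by -1.08 (adjusted p = 0.0030), and the deacetylase Hdac3 of the corepressor complexes by -0.72 (adjusted p = 0.0014). Tbl1xr1, a subunit of these complexes, was called higher at 1.0 in WT (adjusted p = 0.0131) and 1.31 in KO (adjusted p = 7.81e-05).

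Between the saline groups, 8 of 22 CAR and PXR targets were called lower in KO and 2 higher, beside 12.9% and 6.3% of all genes. Of 3 bile acid genes repressed through SHP 2 were called lower, Cyp7a1 by -1.65 (adjusted p = 0.0014) and Cyp8b1 by -1.20 (adjusted p = 0.0248). In the other lists fewer were called. Called lower were 2 of 24 PPAR alpha targets, 3 of 25 other nuclear receptors, 2 of 18 coregulators, 1 of 9 FXR targets and 1 of 6 ERR alpha targets. None of these 5 lists had a gene called higher. Of 10 LXR targets and of 5 thyroid hormone receptor targets 0 were called lower and 1 of each list higher. With WT saline mice 2 and 3 averaged, Cyp7a1 was called (-1.64, adjusted p = 0.0154) and no other gene of the target, receptor and coregulator lists was. Between KO ConA and WT ConA, limma called 0 of the 111 tested genes of these lists. An unadjusted p under 0.05 was found for 26 of the 111, 17 of them higher in KO and 9 lower, beside 1753 of all 10519 genes. In the fit of all 14 livers together, 5 of 23 PPAR alpha targets were called higher in KO and 2 of 22 CAR and PXR targets lower. That fit also called 1 FXR target higher and 1 lower of 9, 1 LXR target higher of 9, and 1 of the other nuclear receptors higher and 1 lower of 18, beside 416 genes higher and 224 lower over all genes.

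In the interaction 9 of the 123 tested genes of these lists were called, beside 2.64% of all genes called higher and 2.14% called lower. The response of Cyp7a1 differed by 1.59 (adjusted p = 0.0020) and was called with the WT saline pair averaged too (1.57, adjusted p = 0.0139). Since its ConA levels were at 0.34 TPM or below in both genotypes, this value has about the size of the saline difference of -1.65 with the sign turned. At ConA levels so near 0 the fit cannot tell whether the response itself differed. The response of Fasn, the fatty acid synthase, differed by -1.25 (adjusted p = 0.0206). Its saline livers lay between 72.0 and 105 TPM in KO and between 42.8 and 48.8 TPM in WT. With the WT saline pair averaged, Fasn differed by -0.14 between ConA and saline in WT (adjusted p = 0.629). In that setting its difference between KO saline and WT saline was 0.91 (adjusted p = 0.0800). Among PPAR alpha targets, the interaction value was above 0 for Pdk4 (1.95, adjusted p = 0.0465), the thioesterase Acot1 (1.68, adjusted p = 0.0382) and Cyp4a10 (1.26, adjusted p = 0.0440). Such a value is the KO response minus the WT response and need not mean a rise with ConA. With the WT saline pair averaged, the WT response was 1.32 for Pdk4, -1.67 for Acot1 and -1.92 for Cyp4a10. After ConA, Pdk4 lay between 1.81 and 6.81 TPM in WT livers and between 11.7 and 34.7 TPM in KO livers.

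Nr4a1, an immediate-early orphan receptor, differed by 1.64 (adjusted p = 0.0387) and lay between 1.27 and 2.25 TPM after ConA in WT and between 3.78 and 12.3 TPM after ConA in KO. The remaining genes were the heparan sulfate proteoglycan Sdc1 (1.17, adjusted p = 0.0462), Atp5b (0.95, adjusted p = 0.0462) and the basolateral conjugate exporter Abcc3 (0.76, adjusted p = 0.0457). With the WT saline pair averaged the adjusted p of these 8 genes other than Cyp7a1 ran from 0.0779 to 0.132, so that they were not called.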

How the data were processed

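Single-end reads of 50 bases were sequenced on a BGISEQ-500. The deposited values are TPM made by the authors. The study's methods name STAR and HTSeq, whereas the submitters' processing notes name Bowtie2, RSEM 1.3.1 and GRCm38.p6, so the route to TPM is not settled. TPM keeps no read depth, so counting intervals and count models could not be used.

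Groups came from the sample labels, 1 mouse per library. Linear models were fitted to log2(TPM + 1) in limma 3.58.1, run under R 4.3.3, with a mean-dependent prior variance, after a check on simulated data. Each comparison used its own 2 groups, and the interaction used all 14 libraries. Genes entered a fit when they reached a TPM of 1 in a number of libraries equal to the size of the smaller group. P-values were adjusted by Benjamini-Hochberg over all genes that entered.

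The members, gene lists, naming rule and tests were chosen with earlier results of these data known. Named are the 10 members, the 3 lowest p-values of every list in WT ConA against WT saline, list genes called in KO ConA against WT ConA or the interaction, Ythdf1, and the gene most like each member in profile. This rule also took 2 genes whose results are left out here. Other named genes were chosen after their values were seen. Nr2e1, Nr2e3, Nr0b1, Slc51a, Trac and Trbc2 were not analysed here, and Atp5f1b was analysed under its older symbol Atp5b.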

Additional observations from a re-analysis of the deposited data

Results flagged for a closer look

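Among 20 groups of 4 mice tested for a lone value (10 members in WT ConA and KO ConA), Thrb in KO ConA had 1 mouse far from the others. KO ConA mouse 3 was at 1.45 TPM, and the gap to the nearest mouse was 0.913 of the whole range of the group, above the 95% critical value of Dixon's test. Chance flags about 1 in 20 such groups. The same mouse had a median ratio to the geometric mean of all libraries of 0.847, and its part in the Thrb value was not tested.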

How the results depend on the processing

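Each difference was fitted again with 0.1 in place of 1 as pseudocount, with a TPM minimum of 5 or none, with libraries rescaled by their median ratio, with a replicate block, with all 14 libraries in each fit, with WT saline mice 2 and 3 averaged, and with each mouse left out in turn. Leaving out ConA mouse 3 of both genotypes together was added after seeing the data. Of 757 member differences recomputed this way, 707 kept their direction and their side of the threshold, 29 lost their call, 8 gained one and 13 changed sign. In both ConA responses the calls of Nr1i3, Nr1i2, Nr1h4, Nr0b2 and Esrra held under each of these. The cause was not tested for the changes that follow.

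With rescaled libraries Nr5a2 changed sign in WT ConA against WT saline (0.0288), as did Nr1i2 in KO ConA against WT ConA (-0.0164), and neither was called. That rescaling moved the median of all genes in the interaction by -0.11 and by under 0.1 elsewhere. In KO saline against WT saline the members called lower went from 4 to 2 without a filter or with rescaling, to 1 with all 14 libraries and to 0 with the averaged pair. Over all genes, 659 higher and 1350 lower became 387 and 571 without a filter, 200 and 132 with all 14 libraries, and 29 and 20 with the averaged pair, and rescaling left 771 lower. Between the ConA groups, calls of 36 genes higher and 9 lower in KO became 1 and 2 without a filter, 116 and 24 with the replicate block, and 416 and 224 with all 14 libraries, where 1 member was called lower, and rescaling left 12 higher. In the interaction 299 higher and 242 lower became 198 and 160 with the block, 19 and 9 with the averaged pair, and 1158 and 433 without ConA mouse 3 of both genotypes, and no filter left 166 higher.

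Replicate numbers are shared by the groups, but nothing in the labels pairs the mice. The correlation of same-numbered deviations ran from -0.198 to 0.411 and was under 0.1 for at least 1 number in each comparison. It was highest for number 3 in KO ConA against WT ConA, and was 0.344 for number 1 in KO saline against WT saline. Whether same-numbered mice were handled together cannot be told from these values. Among the members the block changed 1 call, that of Ppara in KO ConA against KO saline (-0.58, adjusted p = 0.0398).

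With 1 mouse left out, the differences that changed sign were small and none was called in the direction reached. In WT ConA against WT saline, Nr5a2 ran from -0.223 to 0.142 and Thrb from -0.329 to 0.0144. In KO ConA against KO saline, Rxra ran from -0.0182 to 0.200. In KO saline against WT saline, Nr1i2 ran from -0.300 to 0.0082, Nr0b2 from -0.690 to 0.0498, Nr1h3 from -0.0613 to 0.119 and Esrra from -0.0811 to 0.146. In KO ConA against WT ConA, Rxra ran from -0.0070 to 0.211, and in the interaction Nr5a2 ran from -0.0464 to 0.318. In the saline comparison the members called lower ranged from 0 (without WT saline mouse 2 or 3) to 5 (without KO saline mouse 3) and those called higher from 0 to 1. Over all genes they ranged from 28 to 843 higher and from 17 to 2049 lower there, from 4 to 44 higher and from 1 to 8 lower in KO ConA against WT ConA, and from 15 to 482 higher and from 7 to 372 lower in the interaction.

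With a TPM minimum of 5, the other nuclear receptors called lower after ConA numbered 7 in WT and 6 in KO instead of 13 in each, since fewer genes were tested.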
